A study of Mus musculus with 6 samples.

Results

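The mouse genes for the proteins of the cytosolic ribosome were followed across 6 microarrays of the tibial growth plate. A gene belonged to the set if the RefSeq accession of one of its probes carried a symbol made of Rpl or Rps, a number and at most 1 of the letters a, l or x, or was Rplp0, Rplp1, Rplp2 or Rpsa. Of 83 such symbols in the gene table, 80 had a probe, and all 80 passed the filter on dim probes, out of 19122 genes tested. They comprised 49 genes of the large subunit and 31 of the small subunit, read by 166 probes, of which 164 were kept. Rpl32l, Rpl6l and Rps23 had no named probe on the array. The rule used only names, but it was set with earlier results of these data known.

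All samples were untreated male C57BL/6J mice aged 4 weeks, and RNA was obtained by laser microdissection of the tibial growth plate. The 3 genotypes were labelled ATF6aKO (knockout of ATF6a, the product of Atf6), ATF6bKO (knockout of ATF6b, the product of Atf6b) and WT, with 2 arrays each. Whether the 2 arrays of a genotype come from separate animals is not stated in the labels, so each p-value below covers no more than the spread of these arrays, and that may be technical. The knockout arrays shared 1 slide and were read in the red channel, while the WT arrays lay on another slide scanned in 1 channel. In each knockout against WT comparison genotype therefore cannot be told apart from slide and scan, whereas the 2 knockouts were compared within 1 slide, where each genotype filled its own row.

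The ribosome is built from a small subunit, which holds the mRNA and decodes it, and a large subunit, which joins the amino acids and releases the growing chain through an exit tunnel. Cells make the ribosomal proteins in matched amounts, and their mRNAs begin with a 5′ terminal oligopyrimidine (TOP) tract, a C followed by a run of C and T that the protein LARP1 and the kinase complex mTORC1 use to tune translation. Growth plate chondrocytes secrete large amounts of collagen and aggrecan and so depend on ribosomes at the endoplasmic reticulum. ATF6a and ATF6b are membrane proteins of that compartment, cut under stress to release transcription factors. The series title places the comparison in the role of ATF6 in long bone growth.

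The starts of 6 members named below are shown because they carry the TOP tract, the feature that unites these mRNAs, directly at the annotated start. Each line runs 5′ to 3′ from 10 bases before to 20 bases after the start point in RefSeq (GRCm38.p6), with the tract in capitals.
Rps6: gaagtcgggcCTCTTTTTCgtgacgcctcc
Rps10: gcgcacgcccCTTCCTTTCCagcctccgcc
Rps18: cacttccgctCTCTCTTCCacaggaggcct
Rps27: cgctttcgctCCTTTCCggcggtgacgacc
Rpl38: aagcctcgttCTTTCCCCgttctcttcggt
Rplp2: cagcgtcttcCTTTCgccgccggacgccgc

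The windows lie at chr4:86857348-86857377 (minus strand, Rps6), chr17:27635225-27635254 (minus, Rps10), chr17:33955646-33955675 (minus, Rps18), chr3:90213629-90213658 (minus, Rps27), chr11:114668570-114668599 (plus, Rpl38) and chr7:141447641-141447670 (plus, Rplp2). RefSeq promoter windows were at hand for 59 of the 80 members, 71 windows in all. A tract of at least 5 bases that opens with C exactly at the start was present in 13 of the 71 windows (18.3%), against 2.51% of 32851 promoters of all genes. With a tract of at least 7 bases anywhere from 20 bases before to 50 bases after the start, on the gene's own strand, the share was 71.8% against 29.5%. Within the 300 bases of a window and on either strand, the letters CCGGAAGT, a core of the GABPA and ETS family motif, occurred in 16.9% of member windows against 3.89% of all. The TATA box letters TATAAA occurred in 8.45% against 13.6%. These are counts of letters and not measured sites.

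Of the 10 chondrocyte markers, 9 were well above background on every array, while Sox9, a transcription factor that defines chondrocytes, was so on neither WT array and on 1 ATF6bKO array. Col2a1, the main cartilage collagen, had a normalised log2 intensity of 15.06 and 15.36 in ATF6aKO, 14.51 and 13.25 in ATF6bKO and, in WT, 10.88 and 11.15. The median spot intensity lay between 146 and 260, between 162 and 165 of the 166 member probes were well above background on each array, and no member spot was saturated. WT 2 carried 574 outlier spots against 125 to 177 on the other arrays. The single kept probe of Atf6 read 7.07 and 6.97 in ATF6aKO, 6.91 and 7.01 in ATF6bKO and, in WT, 7.05 and 7.28. The probe of Atf6b read 8.92 and 8.48, 8.77 and 8.41, and 9.06 and 9.19 in the same order. Neither gene passed the threshold in its own knockout against WT (adjusted p = 0.498 for Atf6 in ATF6aKO and 0.0824 for Atf6b in ATF6bKO). Whether these probes lie in the deleted parts is not given, so they do not check the labels.

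Across the arrays, ribosomal protein mRNAs moved largely as 1 group, and the large and small subunits moved alike. The plot of every member by array shows this as bands of 1 colour running down both subunits. Each gene was set against its own mean over the 6 arrays, in log2 units. The median deviation of the 49 large subunit genes was 0.35 and 0.57 in ATF6aKO 1 and 2, 0.09 and -0.26 in ATF6bKO 1 and 2, and -0.10 and -0.82 in WT 1 and 2. The 31 small subunit genes had medians of 0.44, 0.71, 0.04, -0.21, -0.16 and -0.80 in the same order. Large minus small lay between -0.14 and 0.05, and was -0.09 and -0.14 in ATF6aKO 1 and 2. Between arrays of a genotype the medians had an SD of 0.34 (large) and 0.30 (small). That spread is largely a shift the 2 subunits share, so it does not measure the difference between them. All genes tested had medians between -0.03 and 0.03.

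**Figure D1:**
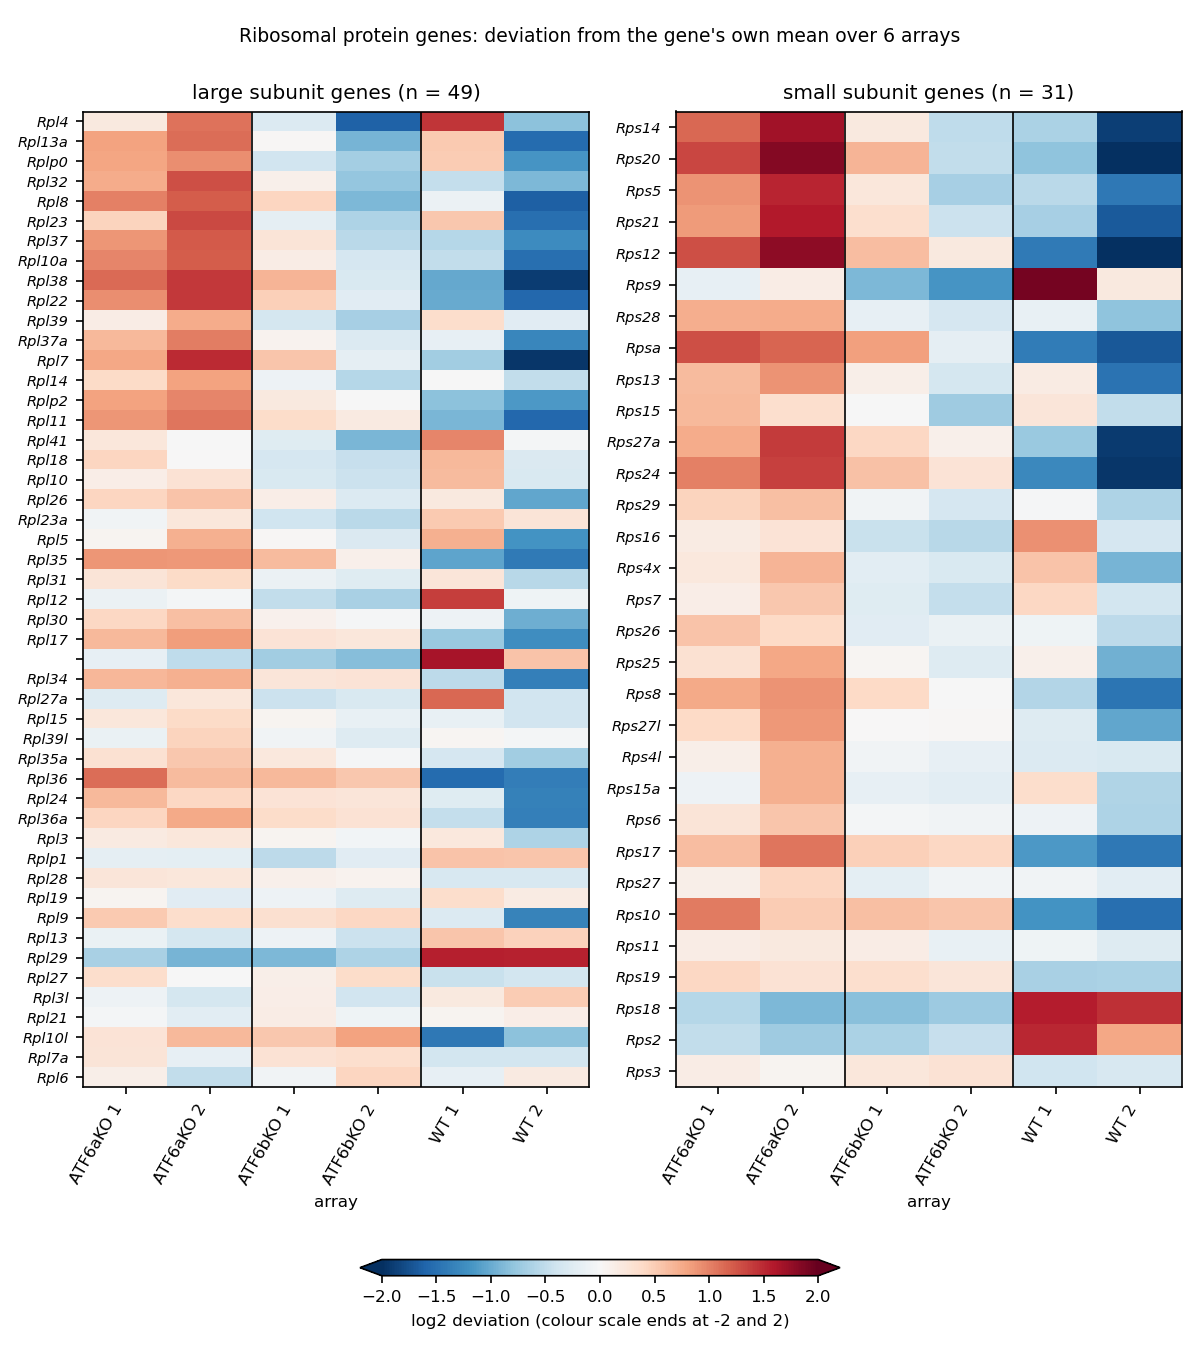
Log2 deviation of each of the 80 ribosomal protein genes from its own mean over the 6 arrays (colour, red above and blue below the mean), with arrays in columns and genes in rows, for the 49 large and 31 small subunit genes ordered by the ATF6aKO minus ATF6bKO difference, 1 row without a label. Most rows are red in ATF6aKO and blue in WT 2, and a few, such as Rpl29 and Rps18, run the other way with red in WT.

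Arrays of the same genotype also differed in the level of the whole group. In WT, array 1 was above array 2 in 71 members and below it in 8, with a median gap of 0.74, while over all genes the gap was -0.08 and 37.5% were higher on array 1. In ATF6bKO, array 1 was above array 2 in 65 members and below in 15, with a median gap of 0.20. In ATF6aKO, array 2 was above array 1 in 55 members and below in 25, with a median gap of -0.19. The widest gaps between arrays of 1 genotype were found in 4 large subunit genes on the WT arrays. Rpl4, whose protein reaches into the constriction of the exit tunnel, read 11.89 on WT 1 and 9.64 on WT 2. Rpl13a read 12.82 and 10.75, Rpl23 12.14 and 10.09, and Rpl5 12.25 and 10.35. For these genes the WT arrays lay far apart, and no comparison with WT passed the threshold. Without WT 1 all 4 were higher in ATF6aKO, by 1.47 (Rpl4), 2.50 (Rpl13a), 2.39 (Rpl23) and 1.58 (Rpl5). Without WT 2 the same values were -0.79, 0.43, 0.34 and -0.33. In ATF6bKO without WT 2, Rpl4 was at -2.37, Rpl13a at -0.98 and Rpl5 at -0.84. Without WT 1, Rpl13a was at 1.09 and Rpl5 at 1.06 in ATF6bKO, so their direction turned with the WT array used.

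Markers of cartilage and bone cells also differed between these arrays. Within each knockout the chondrocyte markers were higher on the same array as the members, but in WT they were higher on the other array. The 10 chondrocyte markers, all tested, had median deviations of 1.37 and 1.84 in ATF6aKO, 0.71 and -0.48 in ATF6bKO and, in WT, -1.77 and -1.40. Their summed level, as log2, was 16.4 to 16.7 in ATF6aKO, 14.6 to 15.8 in ATF6bKO and 13.7 to 14.1 in WT. The 5 tested osteoblast markers of 8 were at 4.43 on WT 1 and -0.88 on WT 2, and their summed level spanned 11.1 to 16.5 in WT against 11.76 to 11.97 in ATF6aKO and 10.79 to 11.18 in ATF6bKO. The 6 osteoclast markers were at 1.80 on WT 1 and -0.31 on WT 2 (summed level 11.4 to 14.1 in WT, 10.87 to 10.91 in ATF6aKO and 10.74 to 11.05 in ATF6bKO), with Ctsk not above background in ATF6bKO. The 7 tested erythroid markers of 10 had a summed level of 12.5 to 15.0 in WT and 10.36 to 10.87 in the knockouts, where Hbb-bt, and in ATF6aKO also Hbb-bs, was not above background. The 6 endothelial markers had a summed level of 11.8 to 11.9 in WT and 10.6 to 10.8 in the knockouts. In macrophage, neutrophil, B cell and skeletal muscle lists the median deviation stayed between -0.14 and 0.27 on every array. Their summed levels were 13.3 to 13.8, 13.6 to 13.7 and 13.0 to 13.1 (macrophage, 4 of 5 tested), 9.90 to 10.01, 9.94 to 9.95 and 9.93 to 10.09 (neutrophil, 6), 11.08 to 11.12, 11.13 to 11.21 and 10.68 to 10.83 (B cell, 6), and 11.45 to 12.01, 11.15 to 11.76 and 10.63 to 10.97 (muscle, 6) in ATF6aKO, ATF6bKO and WT. Mrc1 and S100a8 were not above background in the knockouts. The part of these cell markers in the ribosomal protein values was not tested, and in such bulk RNA fewer cells of a type and less RNA per cell cannot be told apart.

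**Figure D2:**
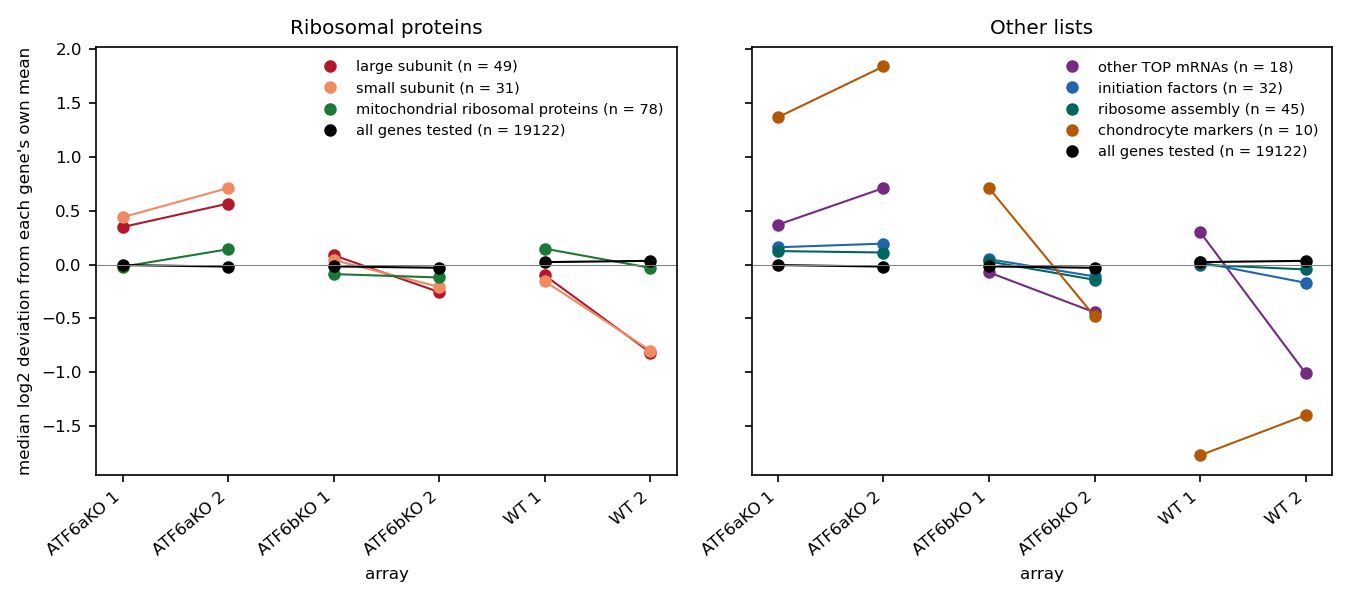
Median log2 deviation of each list from its genes' own means, by array, for the ribosomal protein genes, mitochondrial ribosomal proteins and all genes (left) and for other translation lists and chondrocyte markers (right). The large and small subunits lie almost on top of each other and fall from ATF6aKO 2 to WT 2, chondrocyte markers span a wider range, and all genes stay near 0.

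The comparison of the 2 knockouts within 1 slide asked whether loss of ATF6a and loss of ATF6b leave the growth plate with different levels. Most ribosomal protein genes were higher in ATF6aKO than in ATF6bKO by a modest amount, but no single gene passed the threshold of 0.05 on limma's Benjamini-Hochberg adjusted p. The authors' deposited table gave the other direction, with medians of -0.1 in both subunits, 17 of 80 members positive and 1 with both ATF6aKO arrays above both ATF6bKO arrays. That table does not hold the same signal processed anew. Its differences between knockout arrays followed the green channel, which the labels give no sample, and not the red channel read here. From the scanner files, the log2 difference was positive in 71 of 80 members, against 49.1% of all genes tested, with a median of 0.56 against -0.005 over all genes. It was 0.49 in the large subunit, with 42 of 49 positive, and 0.70 in the small subunit, with 29 of 31 positive. Both ATF6aKO arrays were above both ATF6bKO arrays in 63 members, where the background over all genes was 20.1%, and below both in 2 members (Rpl7a and Rps3), where it was 16.9%. None of the 19122 genes was called (background 0%), and 1169 had an unadjusted p under 0.05, among them 27 members, all 27 higher in ATF6aKO, where the background for that direction was 5.09%. The smallest adjusted p of a member was 0.625. Among 1517 other genes whose mean level fell in the range that held 64 of the members (9.76 to 12.4), 34.7% were positive, 15.3% had both ATF6aKO arrays above both ATF6bKO arrays, and the median was -0.08.

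**Figure D3:**
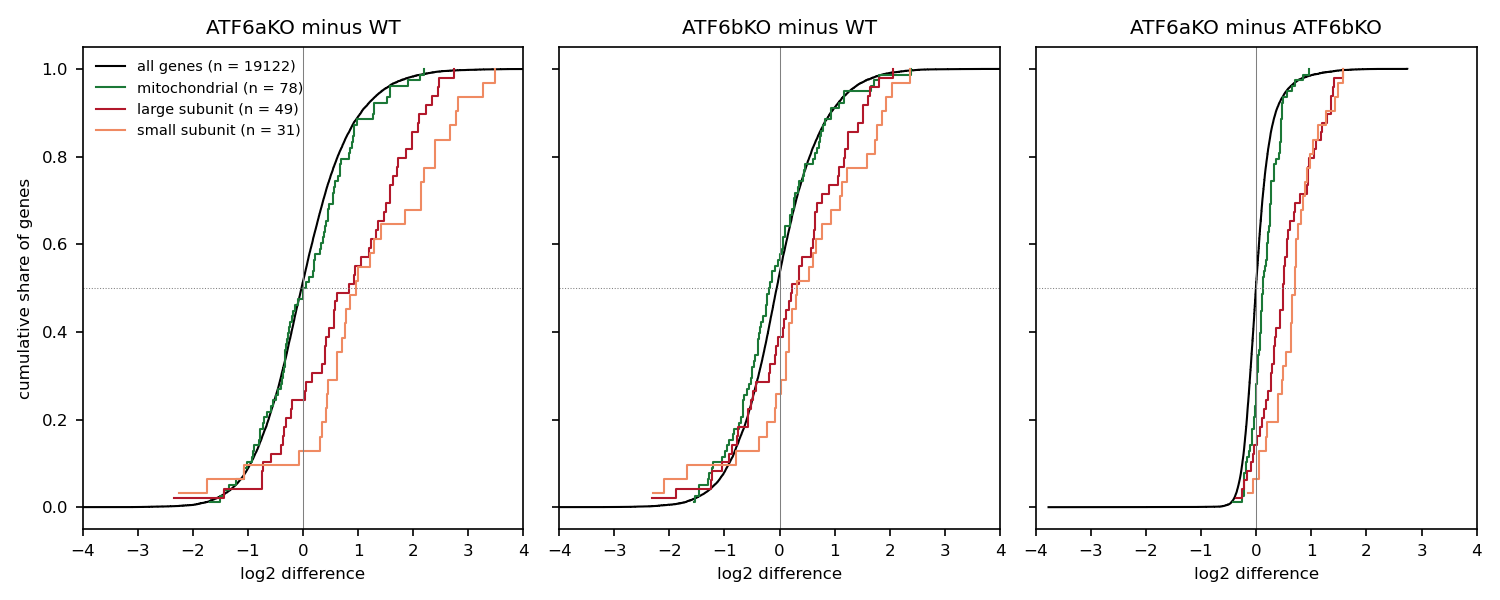
Cumulative share of genes (y axis) by log2 difference (x axis) in the 3 comparisons, for all genes, mitochondrial ribosomal proteins, and large and small subunit genes. In ATF6aKO minus ATF6bKO both subunit curves lie to the right of the curve of all genes along most of their length (medians 0.49 and 0.70 against -0.005), and against WT they are spread over a wider range.

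The 3 members of smallest p in favour of ATF6aKO were Rps28, Rplp2 and Rpl32. Rps28, a small subunit protein next to the path of the leaving mRNA, read 12.18 and 12.20 in ATF6aKO, 11.29 and 11.12 in ATF6bKO and, in WT, 11.30 and 10.66. Its ATF6aKO arrays stood above the other 4, and the log2 difference between the knockouts was 0.98 ± 0.23 (SE, unadjusted p = 0.00294, adjusted p = 0.625 in limma). Rpl32, in the body of the large subunit, read 10.71 and 11.26 in ATF6aKO, 10.07 and 9.18 in ATF6bKO and, in WT, 9.48 and 9.07. It was higher in both ATF6aKO arrays than in any other, with a difference of 1.35 ± 0.33 (adjusted p = 0.625). The third, Rplp2, is given with the P stalk. On the other side, Rpl7a had 12.68 and 12.26 in ATF6aKO against 12.70 and 12.74 in ATF6bKO, Rpl6 had 10.88 and 10.29 against 10.699 and 11.20, and Rps3 had 14.20 and 14.10 against 14.27 and 14.33. These differences were small: -0.26 ± 0.18, -0.36 ± 0.27 and -0.16 ± 0.15, with adjusted p of 0.919, 0.923 and 0.943. They come from the brightest probe of each gene, and other probes differed. The others gave -0.24, 0.13 and 0.18 for Rpl7a, 0.61, 0.69 and 0.90 for Rpl6, and 1.45 for Rps3.

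Against WT, more members were higher in ATF6aKO than lower, in both subunits. In ATF6aKO 44 of 80 members were higher (background 20.3%), 6 were lower (background 22.3%) and 30 did not pass the threshold, with 42.7% of all genes called in either direction. The large subunit contributed 24 higher and 4 lower of 49, with a median log2 difference of 0.84, and the small subunit 20 higher and 2 lower of 31, with a median of 0.97, against -0.03 over all genes. Both ATF6aKO arrays lay above both WT arrays in 53 members (background 34.6%) and below both in 11 (background 38.6%). The counts moved with single arrays: without ATF6aKO 2, 26 were higher and 3 lower, without WT 1 the subunit medians were 1.27 and 1.38, and without WT 2, 11 members were lower and the medians were 0.43 and 0.60.

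In ATF6bKO the shift against WT was smaller. Here 26 members were higher (background 17.3%), 9 were lower (background 20.3%) and 45 did not pass, with 37.6% of all genes called in either direction. The large subunit had 16 higher and 6 lower with a median log2 difference of 0.22, and the small subunit 10 higher and 3 lower with a median of 0.32, against -0.05 over all genes. Both ATF6bKO arrays lay above both WT arrays in 35 members (background 33.3%) and below both in 16 (background 39.5%). Which WT array was used decided much of this result. Without WT 1 the counts were 41 higher and 8 lower with medians of 0.65 and 0.68, and without WT 2 they were 20 and 21 with medians of -0.03 and 0.09. Without ATF6bKO 1 the counts were 12 and 5, and without ATF6bKO 2 they were 15 and 5. Both knockouts were set against the same 2 WT arrays, so their 2 comparisons are not independent. With arrays scaled to their 75th percentile, 58.9% of all calls were higher in ATF6aKO against 47.6% with quantile normalisation, and 61.3% against 46.1% in ATF6bKO, while the members' counts were 45 higher and 6 lower and 25 higher and 10 lower.

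The 4 largest rises against WT in ATF6aKO were in small subunit genes. Rps12 read 14.05 and 14.54 in ATF6aKO, 13.38 and 12.95 in ATF6bKO and, in WT, 11.34 and 10.28. The 3 genotypes did not overlap, and the log2 difference from WT was 3.49 ± 0.35 in ATF6aKO (SE, limma adjusted p = 0.000759) and 2.36 ± 0.35 in ATF6bKO (adjusted p = 0.00278). Its second probe gave 0.75 in ATF6aKO and -0.26 in ATF6bKO, neither called (adjusted p = 0.209 and 0.669). Rps24, one of the genes mutated in Diamond-Blackfan anaemia, read 13.77 and 14.15 in ATF6aKO, 13.36 and 13.04 in ATF6bKO and, in WT, 11.48 and 10.83. It followed the same order without overlap, with differences of 2.80 ± 0.26 (adjusted p = 0.000624) and 2.04 ± 0.26 (adjusted p = 0.00163), while its second probe gave 1.13 and 0.37 (adjusted p = 0.0552 and 0.492). Rpsa, which sits at the mRNA exit and is also known as the laminin receptor precursor, read 12.48 and 12.35, 11.9997 and 11.00, and 9.79 and 9.49 in ATF6aKO, ATF6bKO and WT. Its rises were 2.77 ± 0.31 (adjusted p = 0.000923) and 1.86 ± 0.31 (adjusted p = 0.00394). Rps20 read 12.55 and 13.05 in ATF6aKO, 11.90 and 10.72 in ATF6bKO and, in WT, 10.41 and 8.67. It rose by 3.26 ± 0.58 in ATF6aKO (adjusted p = 0.00423), and its value in ATF6bKO, 1.77 ± 0.58, lay at the threshold (adjusted p = 0.0459) and missed it with 75th percentile scaling (0.0522) and without either ATF6bKO array (0.25 and 0.0503), among other alternatives. Rps10 read 11.72 and 11.18 in ATF6aKO, 11.28 and 11.22 in ATF6bKO and, in WT, 9.47 and 9.16. Both knockouts lay clear of WT and overlapped each other, with rises of 2.13 ± 0.22 and 1.93 ± 0.22 (adjusted p = 0.000777 and 0.00119).

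In the large subunit, Rpl38 had the highest rise in ATF6aKO and Rpl36 the highest in ATF6bKO. Rpl38, whose mutation in mice alters the pattern of the axial skeleton, read 12.01 and 12.29 in ATF6aKO, 11.56 and 10.57 in ATF6bKO and, in WT, 9.86 and 8.98. The genotypes did not overlap, and the differences from WT were 2.73 ± 0.38 (adjusted p = 0.00179) and 1.65 ± 0.38 (adjusted p = 0.0133), the latter not past the threshold without ATF6bKO 1 (1.15, adjusted p = 0.0845). Rpl36 read 12.36 and 11.87 in ATF6aKO, 11.88 and 11.77 in ATF6bKO and, in WT, 9.70 and 9.86. It was alike in the 2 knockouts within their spread, and its rises were 2.34 ± 0.20 (adjusted p = 0.000588) and 2.05 ± 0.20 (adjusted p = 0.000888).

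Among the members that fell, Rpl29, Rps18, Rps2 and Rpl13 did so to nearly the same level in both knockouts, while Rps9 lay lower in ATF6bKO. Rpl29, whose loss in mice reduces body and bone size, read 10.21 and 9.93 in ATF6aKO, 9.98 and 10.25 in ATF6bKO and, in WT, 12.43 and 12.41. Both knockouts stood far below WT and overlapped each other, with differences of -2.35 ± 0.18 (adjusted p = 0.000474) and -2.31 ± 0.18 (adjusted p = 0.000597). These values rest on 1 kept probe, as the other probe of Rpl29 was flagged. Rps18, in the head of the small subunit, read 9.42 and 9.09, 9.16 and 9.26, and 11.56 and 11.45 in ATF6aKO, ATF6bKO and WT, and fell by 2.25 and 2.30 (both SE 0.18, adjusted p = 0.000483 and 0.000592). Its second probe was not called in either and gave 0.062 and -0.87 (adjusted p = 0.883 and 0.057). Rps2, at the mRNA entry, read 11.27 and 11.05, 11.13 and 11.30, and 13.27 and 12.53, and fell by 1.73 and 1.69 (both SE 0.25, adjusted p = 0.00215 and 0.00281). For these 3 genes the knockouts differed from each other by 0.05 or less in size. Rpl13 read 10.03 and 9.82, 10.07 and 9.74, and 10.72 and 10.63, with falls of 0.75 ± 0.18 and 0.77 ± 0.18 (adjusted p = 0.0141 and 0.0145). These calls were lost without the second array of the knockout concerned (adjusted p = 0.0788 and 0.103), and in ATF6aKO also with the scanner's processed signal (0.0625). The direction turned by the second probe of Rpl13, which was called higher at 2.46 and 1.16 (adjusted p = 0.00145 and 0.0252), and by the mean over its probes in ATF6aKO (0.88, adjusted p = 0.0484). Rps9, near the mRNA entry, read 10.33 and 10.64 in ATF6aKO, 9.60 and 9.32 in ATF6bKO and, in WT, 12.41 and 10.69. It fell in ATF6bKO by 2.09 ± 0.48 (adjusted p = 0.0131), a call lost without either ATF6bKO array (0.0591 and 0.0738) or with trended variance (0.0619), and in ATF6aKO its value of -1.06 ± 0.48 did not pass (adjusted p = 0.11).

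**Figure D4:**
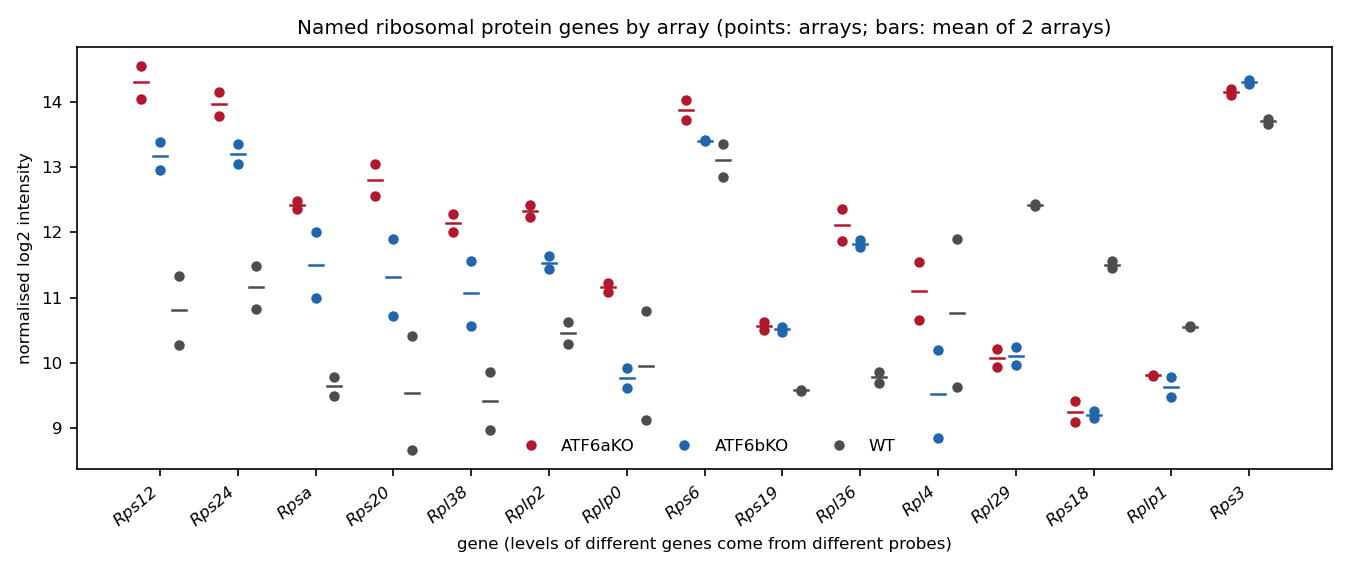
Normalised log2 intensity (y axis) of 15 named members on each array (points) with the mean of the 2 arrays of a genotype (bars). Rps12, Rps24, Rpsa and Rps20 step down from ATF6aKO through ATF6bKO to WT without overlap, Rpl36 and Rps19 separate both knockouts from WT only, Rpl29 and Rps18 lie below WT in both knockouts, and the WT arrays of Rpl4 lie 2.26 apart.

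The P stalk, the flexible arm of the large subunit that recruits the translation factors, did not move as a unit against WT. Rplp0, its base, read 11.09 and 11.23 in ATF6aKO, 9.92 and 9.62 in ATF6bKO and, in WT, 10.80 and 9.12. ATF6aKO stood above all other arrays, yet with the wide WT gap the difference from WT was 1.198 ± 0.47 and did not pass (adjusted p = 0.0724). It was -0.19 ± 0.47 in ATF6bKO (adjusted p = 0.775). The other probes of Rplp0 gave 1.05, not called, and 1.87, called higher, in ATF6aKO. In ATF6bKO they gave -0.36 and 0.34, neither called. The mean over the probes of Rplp0 passed in ATF6aKO, at 1.37 (adjusted p = 0.0439 in limma). Rplp2 read 12.24 and 12.42 in ATF6aKO, 11.64 and 11.43 in ATF6bKO and, in WT, 10.63 and 10.30. It rose in both knockouts without overlap, by 1.87 ± 0.19 and 1.08 ± 0.19 (adjusted p = 0.000728 and 0.00454). Rplp1, its partner in the arm, read 9.81 and 9.81 in ATF6aKO, 9.48 and 9.78 in ATF6bKO and, in WT, 10.57 and 10.55. It fell, by 0.75 ± 0.17 and 0.93 ± 0.17 (adjusted p = 0.0106 and 0.00545), with a call lost without ATF6aKO 2 (0.0503) or without ATF6bKO 1 (0.0532) in the knockout concerned. Between the knockouts all 3 were higher in ATF6aKO, by 1.39 ± 0.47, 0.79 ± 0.19 and 0.18 ± 0.17 for Rplp0, Rplp2 and Rplp1 (adjusted p = 0.696, 0.625 and 0.939).

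Rpl5 and Rpl11 join the 5S RNA in a particle that binds Mdm2 when ribosome assembly fails. Rpl11 read 11.88 and 12.07 in ATF6aKO, 11.36 and 11.17 in ATF6bKO and, in WT, 10.08 and 9.42. The genotypes did not overlap, and it rose by 2.22 ± 0.23 and 1.51 ± 0.23 (adjusted p = 0.000809 and 0.0031). Rpl5 read 11.59 and 12.25, 11.57 and 11.25, and 12.25 and 10.35, so that the WT arrays spanned those of both knockouts, with differences of 0.62 ± 0.55 and 0.11 ± 0.55 (adjusted p = 0.384 and 0.893). Without WT 1 it was at 1.58 in ATF6aKO and 1.06 in ATF6bKO. Without WT 2, the ATF6bKO value turned to -0.84.

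Along the peptide exit tunnel, all 9 members of the list were higher in ATF6aKO than in ATF6bKO, by a median of 0.55, as were 71 of all 80 members. Both ATF6aKO arrays lay above both ATF6bKO arrays in 8 of the 9, against 63 of all 80 members and 20.1% of all genes. Against WT, 3 of the 9 rose in ATF6aKO and none fell, and in ATF6bKO 3 rose and 1 fell, with medians of 0.48 and -0.03. Over all genes the shares called were 20.3% higher and 22.3% lower in ATF6aKO and 17.3% and 20.3% in ATF6bKO, so 3 of 9 is not far from background. Rpl4 read 10.66 and 11.54 in ATF6aKO and 10.20 and 8.85 in ATF6bKO, a difference of 1.58 ± 0.73 that was the largest among the members between the knockouts and did not pass (adjusted p = 0.837). Rpl39, a small protein lining the tunnel, read 10.96 and 11.56 in ATF6aKO, 10.46 and 10.14 in ATF6bKO and, in WT, 11.16 and 10.58. Its ATF6aKO arrays overlapped WT and stood above ATF6bKO, with differences of 0.39 ± 0.27, -0.57 ± 0.27 and 0.96 ± 0.27 for ATF6aKO from WT, ATF6bKO from WT and ATF6aKO from ATF6bKO (adjusted p = 0.277, 0.141 and 0.662). The second probe of Rpl39 was called higher in ATF6aKO against WT, at 2.03 (adjusted p = 0.0118), and gave 0.65 in ATF6bKO, and the mean over probes gave 1.21 in ATF6aKO (adjusted p = 0.0334).

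Of the 18 members mutated in Diamond-Blackfan anaemia, an inherited failure of red cell production, 12 rose and none fell in ATF6aKO against WT, with a median of 0.88, and 8 rose and none fell in ATF6bKO, with a median of 0.29. All 80 members had 44 and 26 higher and 6 and 9 lower, with medians of 0.88 and 0.31. Over all genes 20.3% and 17.3% were higher and 22.3% and 20.3% were lower. Between the knockouts, 17 of 18 were higher in ATF6aKO with a median of 0.51. Rps19, the gene most often mutated, read 10.63 and 10.51 in ATF6aKO, 10.56 and 10.47 in ATF6bKO and, in WT, 9.58 and 9.59. The knockouts were alike within their spread and both rose, by 0.99 ± 0.15 and 0.93 ± 0.15 (adjusted p = 0.00263 and 0.00387). Rps6, the substrate of the S6 kinases, read 13.71 and 14.02 in ATF6aKO, 13.42 and 13.39 in ATF6bKO and, in WT, 13.36 and 12.85. It rose by 0.76 ± 0.21 in ATF6aKO (adjusted p = 0.0245), a call lost without ATF6aKO 2 (0.135), without WT 2 (0.107), with the processed signal (0.0545) or by the second probe (0.127), and was at 0.30 ± 0.21 in ATF6bKO (adjusted p = 0.301). Rps27a, made as a fusion with ubiquitin, read 13.19 and 13.83, 12.86 and 12.54, and 11.70 and 10.52 in ATF6aKO, ATF6bKO and WT. It rose by 2.40 ± 0.39 and 1.59 ± 0.39 (adjusted p = 0.00296 and 0.0163), the latter lost without either ATF6bKO array (0.1 and 0.0557) or with trended variance (0.0559).

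Near-identical copies make some members uncertain, because probes may read more than 1 of them. Rpl3, next to the peptidyl transferase centre, read 11.79 and 11.83 in ATF6aKO, 11.66 and 11.54 in ATF6bKO and, in WT, 11.81 and 10.99, with no comparison past the threshold. Its muscle paralogue Rpl3l was well above background on both WT arrays and on no knockout array. Its mean level in WT was at least 1.44-fold that in ATF6aKO and at least 1.2-fold that in ATF6bKO. Each is a bound from the lowest signal well above background and leaves out the spread of the arrays. Rpl3l was not called in either (adjusted p = 0.0751 and 0.136). Rpl10, which joins the large subunit last, read 12.80 and 12.96, 12.38 and 12.24, and 13.30 and 12.37, with differences from WT of 0.05 ± 0.29 and -0.53 ± 0.29 (adjusted p = 0.909 and 0.187). The other 2 probes of Rpl10 gave 2.62 and 2.58 in ATF6aKO, both called higher, and 1.40 and 1.54 in ATF6bKO, the latter called, and the mean over probes gave 1.75 in ATF6aKO (adjusted p = 0.0116). Its testis paralogue Rpl10l read 8.77 and 9.15 in ATF6aKO, 9.05 and 9.31 in ATF6bKO and, in WT, 7.07 and 7.69. It rose by 1.58 ± 0.25 and 1.80 ± 0.25 (adjusted p = 0.00266 and 0.0021), but its second probe gave -0.85 and -0.86.

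Rpl39l, a testis paralogue of Rpl39, read 6.45 and 7.02 in ATF6aKO, 6.50 and 6.33 in ATF6bKO and, in WT, 6.62 and 6.54, and no comparison passed. Rps27 read 10.01 and 10.32, 9.70 and 9.83, and 9.82 and 9.68, with 0.41 ± 0.18 in ATF6aKO (adjusted p = 0.0937). Its other 3 probes were all called higher, at 2.45, 2.16 and 2.23 in ATF6aKO and 1.65, 1.26 and 1.37 in ATF6bKO, and the mean over probes gave 1.81 in ATF6aKO (adjusted p = 0.00105). The p53 target Rps27l read 9.90 and 10.37, 9.50 and 9.52, and 9.24 and 8.46. Rps27l rose in ATF6aKO by 1.28 ± 0.28 (adjusted p = 0.00915, 0.0718 without ATF6aKO 2) and was at 0.66 ± 0.28 in ATF6bKO (adjusted p = 0.1). Rps4x, the copy on the X chromosome, read 11.10 and 11.58, 10.69 and 10.59, and 11.47 and 9.96, and did not pass in any comparison. Rps4l read 7.38 and 7.98 in ATF6aKO, 7.19 and 7.10 in ATF6bKO and, in WT, 6.99 and 6.97, and rose in ATF6aKO by 0.70 ± 0.22 (adjusted p = 0.0343). That call was lost without ATF6aKO 2 (0.147) and, narrowly, without any of the ATF6bKO or WT arrays (0.0537 to 0.0678).

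How far a member's value rests on its probe differed between the comparisons. Of the 80 members, 50 had at least 2 kept probes (Rpl17 had 7) and 30 had 1. For those 30, among them Rpl29, Rps20, Rps10, Rps19, Rps9, Rplp1 and Rplp2, no second probe was there to check the value. Between the knockouts, all probes of a gene were positive in 38 of the 50 and all were negative in none, and the median range between probes of a gene was 0.41 in log2. Over all 164 member probes 149 were positive, against 45.1% of the 52531 kept probes. Against WT the probes of a gene diverged more. For ATF6aKO they had the same sign in 30 of 50 genes (26 positive, 4 negative), with a median range of 1.40, and 5 genes (Rps27a, Rpl13, Rpl17, Rpl10l and Rpl27a) had 1 probe called higher and another called lower. For ATF6bKO the sign was shared in 24 of 50 genes (18 positive, 6 negative), with a median range of 0.97, and 3 genes (Rpl17, Rpl10l and Rpl13) were called both ways. Counted by probe, 91 of 164 were called higher and 13 lower in ATF6aKO, and 55 and 20 in ATF6bKO.

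**Figure D5:**
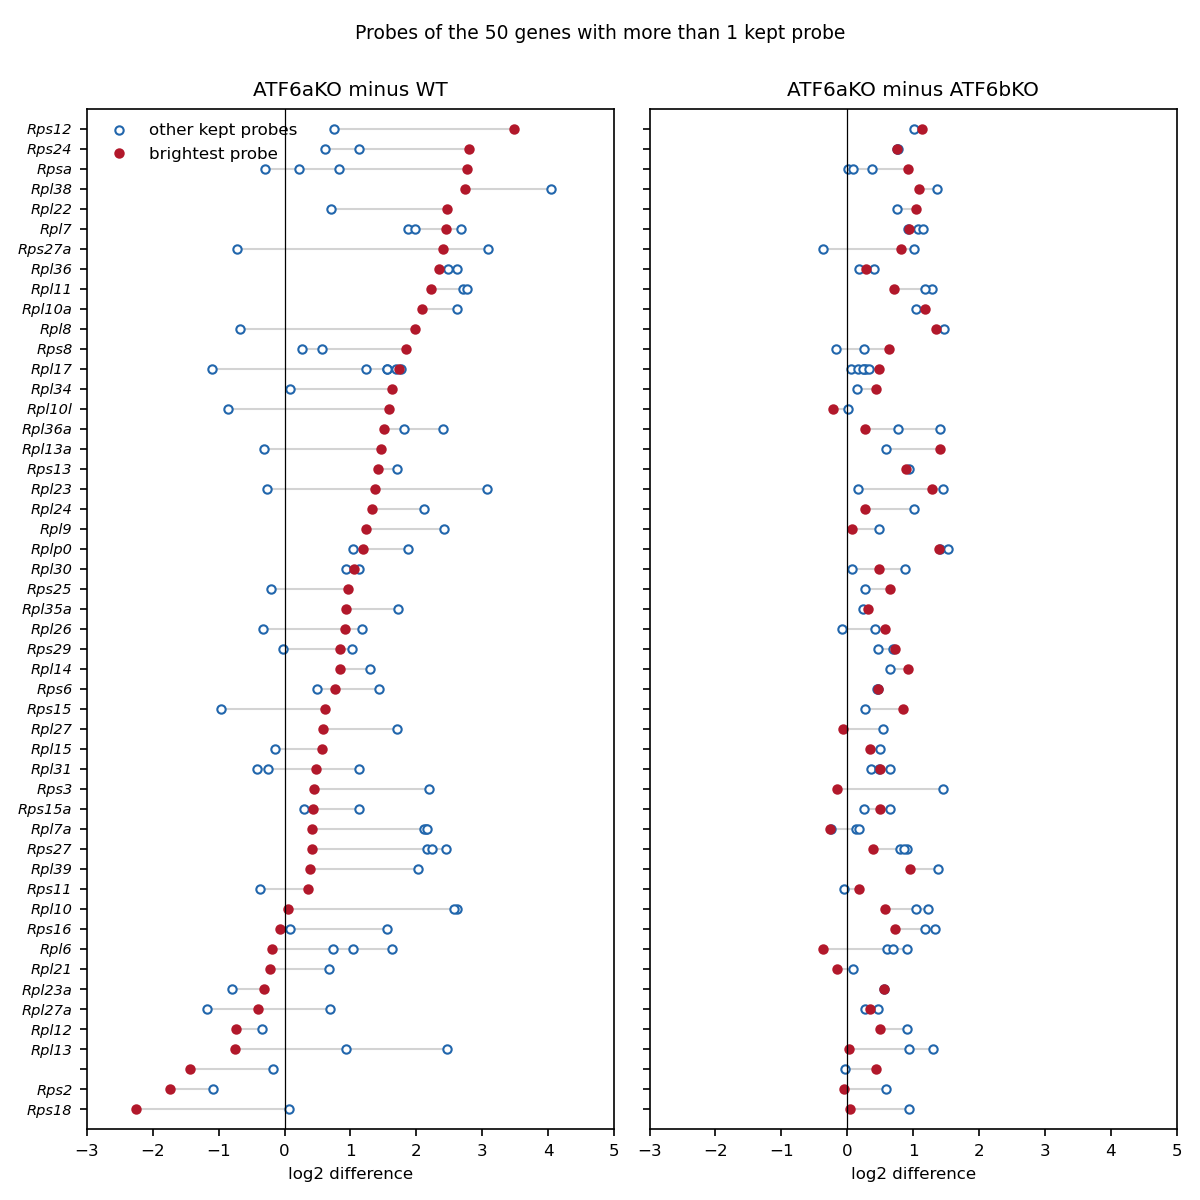
Log2 difference (x axis) of every kept probe of the 50 members with more than 1 kept probe (y axis, 1 row a gene), with the brightest probe filled and the others open, for ATF6aKO minus WT (left) and ATF6aKO minus ATF6bKO (right). The rows are wide on the left, with a median range of 1.40, and narrow on the right, with a median range of 0.41, where most points lie above 0.

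The 4 genes with the widest range against WT were Rps27a, Rpl23, Rpl13 and Rpsa. The 3 probes of Rps27a gave 2.40, 3.09 and -0.72 in ATF6aKO against WT, those of Rpl23 gave 1.37, 3.07 and -0.26, and those of Rpl13 gave -0.75, 2.46 and 0.93, from the brightest to the dimmest. The 4 probes of Rpsa gave 2.77, 0.83, 0.22 and -0.30. In each of these genes the probes did not share a sign. Rps2 was lower by both of its probes (-1.73 and -1.08 in ATF6aKO, -1.69 and -1.67 in ATF6bKO). Both probes of Rpl38 were positive, at 2.73 and 4.04 in ATF6aKO and 1.65 and 2.68 in ATF6bKO. The second of them read 10.18 on WT 1 and 6.17 on WT 2, so its values carry an SE of 1.07, and its ATF6bKO value was not called. Between the knockouts, the largest range was that of Rps3, whose probes gave -0.16 and 1.45.

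Ribosome parts outside the symbol rule went the same way between the knockouts. All 7 were higher in ATF6aKO than in ATF6bKO on both arrays (background 20.1%), with a median of 1.45. Against WT, 4 rose and none fell in ATF6aKO (median 1.19, background 20.3% and 22.3%). None was called in ATF6bKO (median 0.50, background 17.3% and 20.3%). Rack1, the signalling scaffold on the head of the small subunit, read 10.57 and 11.31, 10.03 and 8.95, and 8.80 and 7.48, and rose against WT in ATF6aKO by 2.80 ± 0.50 (adjusted p = 0.00445). The 78 mitochondrial ribosomal proteins, encoded by nuclear genes and serving the ribosome of the mitochondrion, had medians of 0.02 and -0.18 against WT, with 19 higher and 18 lower in ATF6aKO and 13 and 22 in ATF6bKO. These counts lie near the shares over all genes, 20.3% and 22.3% in ATF6aKO and 17.3% and 20.3% in ATF6bKO. Between the knockouts 59 of 78 were positive, with a median of 0.12, and both ATF6aKO arrays were above both ATF6bKO arrays in 31 (background 20.1%).

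Other mRNAs with a TOP tract were also higher in ATF6aKO than in ATF6bKO. All 18 tested of 19 had a positive difference, with a median of 0.46, and both arrays were above both ATF6bKO arrays in 13 (background 20.1%). The lists overlap: this one shares Rack1 with the ribosome parts, Npm1 with the assembly genes below and several genes with the initiation factors below. Against WT, 5 rose and 2 fell in ATF6aKO (median 0.68, background 20.3% higher and 22.3% lower), and 3 rose and 2 fell in ATF6bKO (median -0.11, background 17.3% and 20.3%), so the shares of rises were near background. In median deviation the list had WT 1 at 0.30 and WT 2 at -1.01. Npm1, a nucleolar chaperone, rose by 2.83 ± 0.16 and 2.52 ± 0.16 (adjusted p = 0.000463 and 0.000534), and Eef2, the elongation factor that moves the ribosome along the mRNA, fell by 3.41 ± 0.20 and 3.65 ± 0.20 (the same adjusted p values). The 45 tested of 46 genes of ribosome assembly and RNA polymerase I included 13 higher and 4 lower in ATF6aKO (median 0.26) and 7 and 8 in ATF6bKO (median -0.01), and 31 were positive between the knockouts (median 0.17). The same shares over all genes apply to these counts. Among 32 tested of 34 initiation factors, 9 were higher and 4 lower in ATF6aKO (median 0.29), 7 and 4 in ATF6bKO (median 0.04), and 23 were positive between the knockouts (median 0.24).

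The regulators of TOP mRNAs and the p53 pathway, which answers to failed ribosome assembly, were tested as further lists. Of 14 tested of 15 genes of mTORC1, LARP1 and S6 kinase, 4 were higher and 1 lower in ATF6aKO against WT (median 0.19), 3 and 1 in ATF6bKO (median 0.17), and 8 were positive between the knockouts (median 0.01). Over all genes the shares were 20.3% and 22.3% in ATF6aKO and 17.3% and 20.3% in ATF6bKO, and the share of rises in this list was near them. The S6 kinase genes went apart against WT: Rps6kb1 rose by 1.89 ± 0.18 and 1.68 ± 0.18 (adjusted p = 0.000662 and 0.00103) and Rps6kb2 fell by 0.93 ± 0.18 and 0.80 ± 0.18 (adjusted p = 0.00548 and 0.011). Of 12 tested of 13 genes of the p53 pathway, 3 were higher and 2 lower in ATF6aKO (median -0.02), 1 and 1 in ATF6bKO (median 0.05), and 7 were positive between the knockouts (median 0.20).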

How the data were processed

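Amplified, Cy5-labelled cDNA from the 6 samples was hybridised to an Agilent mouse array, per the labels' protocols. The deposited scanner files hold spot intensity, read by the authors' software, which the submitters' processing notes name as Agilent Feature Extraction 10.7.1.1. The extraction protocol was a 2-channel one with only Cy5 switched on for the knockouts and a 1-channel one for WT, per the file headers. The authors' deposited table gives log2 values for these 6 arrays, with centring that stays unknown (column medians 0.2 and 0.1 in ATF6aKO, 0 and 0.227 in ATF6bKO, -0.5 and -0.5 in WT); it served only as an alternative.

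Median spot and background intensities were corrected with normexp (offset 50; limma 3.58.1, R 4.3.3), taken to log2, stripped of control and outlier spots, averaged per probe and quantile normalised. Probes were named by RefSeq accession (GRCm38.p6, names only); the array was designed on another build. Probes had to be well above background on both arrays of some genotype, and each gene was read from the brightest probe that passed. Genotypes were fitted over all 6 arrays with lmFit and eBayes, with Benjamini-Hochberg adjustment over 19122 genes and a threshold of 0.05. The fit was tested on simulated data. SE is the fit's standard error, and only 2 arrays a genotype limit the precision.

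Members and lists were chosen with earlier results of these data known. The genes named were fixed ones (stalk, 5S particle, Rpsa, Rps6, Rps27a, Rps19, Rps24, paralogue pairs), the 5 largest called rises and 5 largest called falls without overlap in each comparison (or the 3 of smallest p each way), the 4 widest array gaps, the 4 widest probe ranges, and the list members of smallest p, of which those a result turns on are given. Rpl17 and Rpl27a and the marker Col2a1 were added after their values were seen. Values of 2 genes are not reported here, and 1 of them is a member that still enters every count. Alternatives covered scaling, background, filter, probe choice, variance, the replicate block, single arrays, and the authors' table. Drawings used matplotlib 3.10.9 and pandas 2.3.3 in Python 3.11.15.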

Additional observations from a re-analysis of the deposited data

Results flagged for a closer look

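The green channel of the 4 knockout arrays, which the labels give no sample, held signal at the ribosomal protein spots. Well above background in green were 91.4% and 82.3% of the 175 member spots on ATF6aKO 1 and 2, and 92.0% and 82.9% on ATF6bKO 1 and 2. Over all spots the shares were 11.4%, 9.59%, 12.5% and 8.46% in the same order. Among other spots within the 10% to 90% range of the members' red signal, they were 13.4%, 13.6%, 14.3% and 8.88%. The median green processed signal of the member spots was 351, 268, 444 and 239, against 0.72, 1.19, 0.79 and 0.52 for those other spots. The WT arrays have no second channel to compare, and the source of the green signal was not tested.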

How the results depend on the processing

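Directions of the subunit medians and counts of calls within 1.5 times held under 75th percentile scaling, offset 16, the processed signal, both other filters, both other probe choices, trended variance and the fit of 4 arrays; exceptions follow. With 1 array left out, ATF6aKO against WT gave 26 to 53 members higher, 3 to 11 lower, 4682 to 8061 genes called, and medians of 0.43 to 1.27 (large) and 0.60 to 1.38 (small). ATF6bKO against WT gave 12 to 41 higher, 5 to 21 lower, 3080 to 7019 genes, and medians of -0.026 to 0.65 and 0.086 to 0.68. Between the knockouts 0 to 8 genes were called, none a member. In ATF6bKO the value ran from -1.03 without WT 2 to 0.65 without WT 1 in Rplp0, from -0.98 to 1.09 in Rpl13a and from -0.84 to 1.06 in Rpl5.

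The titles number the arrays 1 and 2 in each genotype. Gaps between arrays 1 and 2 correlated at -0.16, -0.07 and 0.20 between genotypes across 19122 genes. Such correlations cannot settle whether arrays of equal number were handled together. With the replicate block the members' counts were 42 higher and 6 lower in ATF6aKO, 24 and 10 in ATF6bKO, and 0 between the knockouts, with 7594, 6630 and 0 of all genes called. Among the named genes, only the Rps3 call in ATF6aKO was lost under the block (adjusted p = 0.0746 in limma).

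With the mean over probes, Rpl13 turned to 0.88 in ATF6aKO and 0.13 in ATF6bKO, and Rpl6 to 0.80 in ATF6aKO. With the second probe, ATF6aKO values turned to -0.85 in Rpl10l, 2.46 in Rpl13 and 0.062 in Rps18, and ATF6bKO values to -0.86 in Rpl10l, 1.16 in Rpl13, -0.90 in Rpl13a and -0.26 in Rps12. The cause was not tested.

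The authors' deposited table gave 76 members higher and 2 lower in both comparisons with WT, with medians of 4.65 (large) and 5.50 (small) in ATF6aKO and 4.97 and 5.51 in ATF6bKO. In the authors' deposited table the medians between the knockouts were -0.10 and -0.10, and 17 of 80 members were positive. For ATF6aKO the authors' deposited table turned Rpl13 to 6.15, Rpl29 to 2.4, Rpl3l to 2.4, Rplp1 to 6.37, Rps18 to 2.72, Rps2 to 3.6, Rps3 to -3.35 and Rps9 to 4.05. For ATF6bKO the authors' deposited table turned Rpl10 to 5.0, Rpl13 to 6.25, Rpl29 to 2.4, Rpl39 to 4.97, Rpl39l to 2.55, Rpl3l to 2.4, Rpl4 to 5.45, Rpl6 to -3.6, Rplp0 to 8.44, Rplp1 to 6.35, Rps18 to 3.04, Rps2 to 3.6, Rps3 to -2.75, Rps4x to 3.85 and Rps9 to 4.05. Knockout differences in the authors' deposited table followed the green channel (r 0.994 to 0.995 across probes) and not the red one (-0.07 to 0.14), and probes are not independent replicates.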
